A study of Homo sapiens with 16 samples.

Results

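The genes followed here are 6 human brakes on the growth kinase complex mTORC1: DDIT4, DDIT4L, SESN1, SESN2, SESN3 and DEPTOR. They were chosen by name, from what is known of their function and with earlier results of these data known. The choice was therefore not independent of the values below. Each has a probe set annotated to that gene alone. DDIT4 lies at chr10:72273924-72276036, DDIT4L at chr4:100185870-100190468, SESN1 at chr6:108984309-109094846, SESN2 at chr1:28259518-28282491 and SESN3 at chr11:95165513-95232475 (GRCh38.p14), and DEPTOR is on chromosome 8. All 6 had exactly 1 such probe set, among 22395 genes with a probe set of their own, and all 6 were bright enough to be among the 15676 genes tested. The cells were DLD1 and HCT116, established colorectal carcinoma lines, and the measurements were 16 Affymetrix whole-transcript arrays of total RNA. Each line came as 2 derivatives that differ in PIK3CA, which encodes a catalytic subunit of phosphoinositide 3-kinase (PI3K). In Mut cells the normal allele had been knocked out and the mutant one was left, and in WT cells the mutant allele had been knocked out and the normal one was left, so every group carried a knocked-out PIK3CA allele. Each derivative was grown for 24 h without or with glutamine, in DMEM with 10% dialyzed serum, which gave 8 groups of 2 arrays: DLD1 Mut without and with glutamine, DLD1 WT without and with it, HCT116 Mut without and with it, and HCT116 WT without and with it. The labels call the 2 arrays biological replicates and do not say whether they came from separate cultures, so p-values measure the spread between these arrays. Each genotype of a line is represented by a single derivative, and PIK3CA itself was not analysed here.

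As background, mTORC1 drives protein synthesis and growth when amino acids and growth factor signals are sufficient. PI3K and AKT activate it by holding back the TSC complex, which otherwise switches off the GTPase Rheb, while amino acids act through the Rag GTPases under the control of the GATOR complexes. DDIT4 (REDD1) and its relative DDIT4L (REDD2) act on the TSC branch, the sestrins bind GATOR2 in the amino acid branch, and DEPTOR binds the mTOR kinase itself. DDIT4 and SESN2 are known targets of ATF4, which drives the transcriptional response to amino acid shortage, and SESN3 is better known as a target of the FOXO factors.

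Array medians lay between 3.57 and 3.71 on the linear scale and array maxima between 13.41 and 13.51 on the log2 scale. Replicate arrays correlated at r = 0.989 to 0.992, a correlation across genes, and genes are not replicates of each other. All 10 colorectal epithelial markers were in the tested range by mean level, led by EPCAM at a mean log2 level of 10.8. VIL1 (2.03), GPA33 (2.17) and CDX1 (2.56) were dim. Over the arrays CDH17 ran from 1.73 to 9.52 and VIL1 from 1.44 to 3.22, so not every marker was well above the floor throughout. Of 10 leukocyte, fibroblast and endothelial markers with a probe set, 8 were below the tested range and lay between 0.71 and 2.02 on every array, with the pan-leukocyte marker PTPRC at a mean of 0.93. Of the 2 in range, CD68 (5.93) and COL1A1 (2.93), 1 was called higher for the mean change after glutamine withdrawal, and its part in the results was not tested. In such bulk RNA fewer cells of a kind and less RNA per cell cannot be told apart, and values are relative to the rest of each array. Levels below are log2 intensities, changes are log2 differences ± SE from limma, and a gene was called where its Benjamini-Hochberg adjusted p over all tested genes was under 0.05. Levels are set side by side within a gene only.

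The promoters of DDIT4 and SESN2, the members with the largest responses, are shown because both genes moved together. They run from 250 bases before to 50 bases after the RefSeq start site (GRCh38.p14), on the plus strand, at chr10:72273674-72273973 for DDIT4 and chr1:28259268-28259567 for SESN2. Capitals mark a motif match.

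DDIT4: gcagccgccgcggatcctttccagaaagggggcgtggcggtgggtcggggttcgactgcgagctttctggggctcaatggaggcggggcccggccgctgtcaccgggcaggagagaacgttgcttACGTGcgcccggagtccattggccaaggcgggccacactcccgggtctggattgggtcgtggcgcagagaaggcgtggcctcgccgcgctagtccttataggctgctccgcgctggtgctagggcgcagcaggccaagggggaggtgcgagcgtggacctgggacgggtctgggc

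SESN2: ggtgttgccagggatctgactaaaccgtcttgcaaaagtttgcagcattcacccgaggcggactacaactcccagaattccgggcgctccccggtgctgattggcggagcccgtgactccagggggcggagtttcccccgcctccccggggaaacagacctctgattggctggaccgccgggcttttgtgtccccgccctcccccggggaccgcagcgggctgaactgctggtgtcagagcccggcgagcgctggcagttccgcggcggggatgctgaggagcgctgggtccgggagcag

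Both strands of these windows were searched for the C/EBP-ATF composite element TGATGNAA, the FOXO element GTAAACA, the hypoxia core ACGTG and the E-box CACGTG, which contains the hypoxia core. DDIT4 held 1 match, a hypoxia core at position -125 from the start site, and SESN2 held none. Among 35116 RefSeq promoters of the same length 3.62% held the composite element, 3.42% the FOXO element, 21.4% the hypoxia core and 7.26% the E-box. SESN1 (3 promoters), SESN3 and DDIT4L held no match to the 4 motifs. A match describes letters in this window only, and elements further away were not searched.

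DDIT4, which is induced by several stresses and frees the TSC complex to act on Rheb, was higher without glutamine in every derivative and reached a similar level in all of them. In DLD1 Mut cells DDIT4 stood at 9.32 and 9.40 without glutamine, against 7.49 and 7.95 with it. DLD1 WT cells had 9.07 and 9.01 without glutamine, against 4.96 and 5.02 with it. The arrays of the 2 conditions did not overlap in either derivative, and the rise was 3.12-fold in Mut (1.64 ± 0.13, limma adjusted p = 9.15e-06) and 16.5-fold in WT cells (4.05 ± 0.13, limma adjusted p = 2.23e-07). HCT116 Mut cells had 9.44 and 9.27 without glutamine, against 8.92 and 8.91 with it. HCT116 WT cells had 9.51 and 9.54 without glutamine, against 7.40 and 7.27 with it. Again no arrays overlapped, and DDIT4 rose 1.36-fold in Mut (0.44 ± 0.13, limma adjusted p = 0.0257) and 4.56-fold in WT cells (2.19 ± 0.13, limma adjusted p = 5.45e-06). The call in HCT116 Mut cells was lost without replicate 1 (adjusted p = 0.0825) or 2 (adjusted p = 0.0934) with glutamine, or replicate 1 without it (adjusted p = 0.146), while the change stayed between 0.36 and 0.53.

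**Figure D1:**
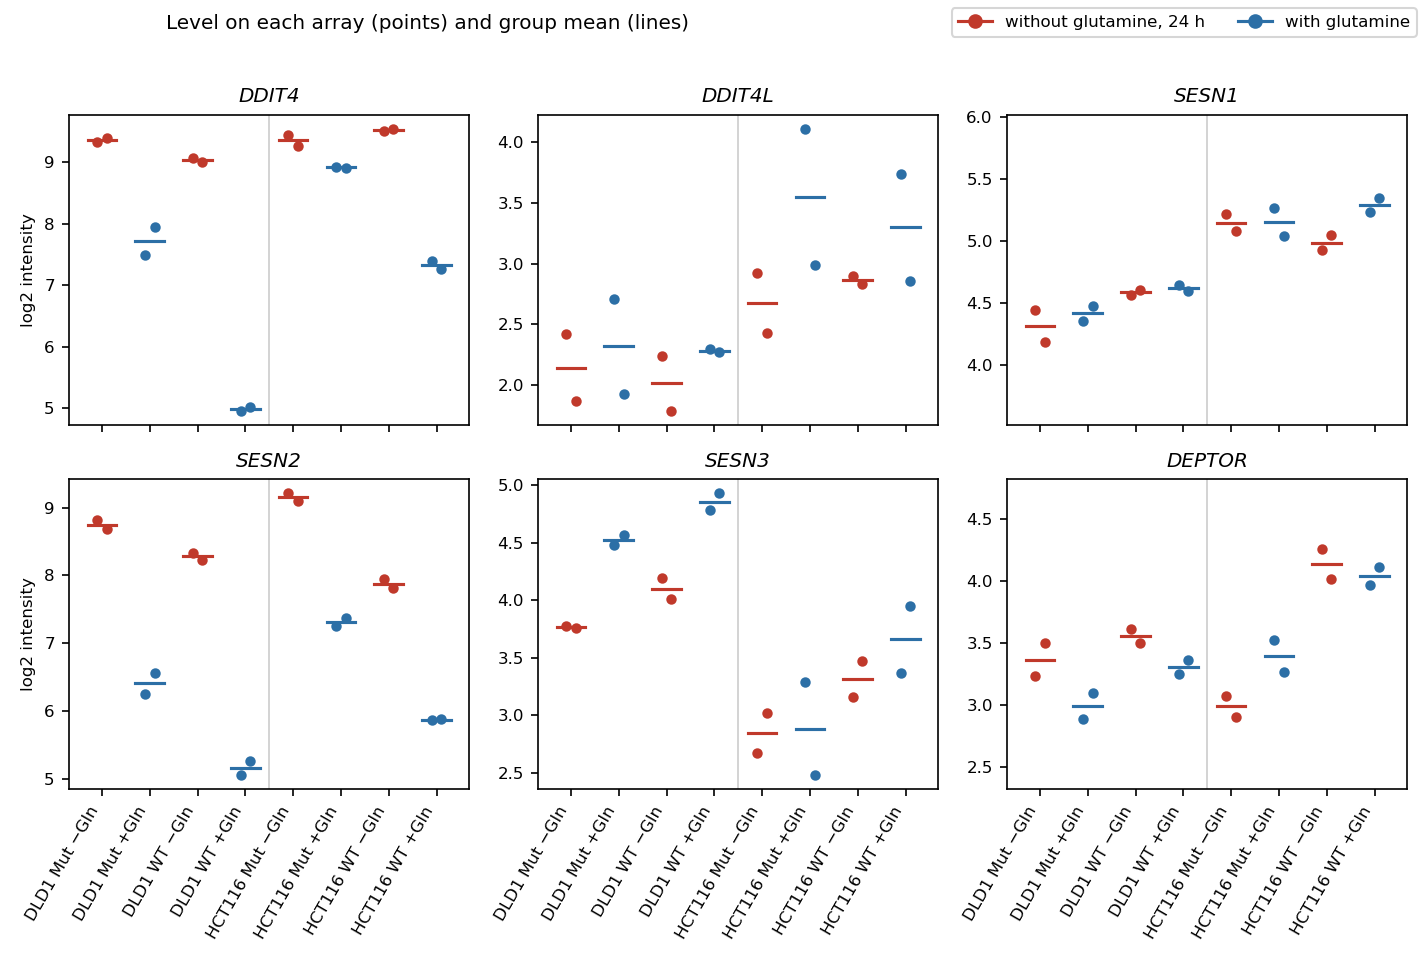
Log2 intensity of each member (y axis, own range per panel) in the 8 groups (x axis), with 1 point per array, a line at the group mean, red without and blue with glutamine. DDIT4 and SESN2 are higher without glutamine in every derivative, DDIT4L and SESN1 are lower and SESN3 higher in DLD1 (left) than in HCT116 (right) with glutamine, and DEPTOR is highest in HCT116 WT cells, at 4.14 without and 4.04 with glutamine.

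The 4 group means of DDIT4 without glutamine spanned 0.49 log2 units, from 9.04 in DLD1 WT to 9.53 in HCT116 WT cells. With glutamine they spanned 3.92, from 4.99 in DLD1 WT to 8.91 in HCT116 Mut cells. In rank among all genes with a probe set, DDIT4 lay between the 96.5th and 98.1th percentile without glutamine, and between the 65.1th and 96.0th with it. From high to low the group means were 9.53 in HCT116 WT, 9.36 in DLD1 Mut, 9.36 in HCT116 Mut and 9.04 in DLD1 WT cells without glutamine, then 8.91 in HCT116 Mut, 7.72 in DLD1 Mut, 7.34 in HCT116 WT and 4.99 in DLD1 WT cells with it. Of the 7 pairs of neighbours in this order, 1 had overlapping arrays, that of DLD1 Mut and HCT116 Mut cells without glutamine.

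DDIT4L, a dim paralogue known mainly from muscle, was not called after withdrawal in any derivative. Without glutamine it had 2.42 and 1.87 in DLD1 Mut, 2.24 and 1.79 in DLD1 WT, 2.92 and 2.43 in HCT116 Mut, and 2.90 and 2.83 in HCT116 WT cells. With glutamine it had 2.71 and 1.93, 2.30 and 2.27, 4.11 and 2.99, and 3.74 and 2.86 in the same derivatives. Replicate 1 was above replicate 2 in every group, far above it in places, and all 7 pairs of neighbours in the order of group means overlapped. The changes were -0.18 in DLD1 Mut, -0.27 in DLD1 WT, -0.87 in HCT116 Mut and -0.44 in HCT116 WT cells (each ± 0.41), with limma adjusted p from 0.134 to 0.793. The mean change was -0.44 (95% interval -0.89 to 0.01). Without replicate 2 of HCT116 Mut cells with glutamine the change there was called (-1.43, adjusted p = 0.0318), and so was the mean (adjusted p = 0.0254), as it was with replicate 2 of glutamine-fed HCT116 WT cells left out (adjusted p = 0.0487).

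SESN2, which binds leucine and releases GATOR2 when leucine is present, rose in all 4 derivatives. DLD1 Mut cells had 8.81 and 8.68 without glutamine, against 6.26 and 6.56 with it. In DLD1 WT cells the values were 8.33 and 8.23 without glutamine, against 5.06 and 5.27 with it. The rise was 5.04-fold in Mut (2.33 ± 0.12, limma adjusted p = 1.16e-06) and 8.67-fold in WT cells (3.12 ± 0.12, limma adjusted p = 2.81e-07), with no overlap between arrays. HCT116 Mut cells had 9.21 and 9.09 without glutamine, against 7.25 and 7.37 with it. In HCT116 WT cells SESN2 had 7.94 and 7.81 without glutamine, against 5.87 and 5.88 with it. These rises were 3.57-fold in Mut (1.84 ± 0.12, limma adjusted p = 3.6e-06) and 4.0-fold in WT cells (2.00 ± 0.12, limma adjusted p = 5.45e-06), again without overlap.

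All 4 group means of SESN2 without glutamine were above all 4 with it. They ran from 9.15 in HCT116 Mut over 8.75 in DLD1 Mut and 8.28 in DLD1 WT to 7.87 in HCT116 WT cells without glutamine, then from 7.31 in HCT116 Mut over 6.41 in DLD1 Mut and 5.87 in HCT116 WT to 5.16 in DLD1 WT cells with it. No neighbours in this order had overlapping arrays. The spread over the 4 derivatives was 1.28 without and 2.15 with glutamine.

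SESN1, a sestrin that, like SESN2, binds GATOR2, was not called after withdrawal in any derivative. Without glutamine SESN1 had 4.45 and 4.19 in DLD1 Mut, 4.57 and 4.61 in DLD1 WT, 5.22 and 5.08 in HCT116 Mut, and 4.93 and 5.05 in HCT116 WT cells. With it SESN1 had 4.36 and 4.48, 4.65 and 4.60, 5.27 and 5.04, and 5.24 and 5.35 in the same derivatives. Arrays overlapped in the first 3 derivatives and not in HCT116 WT cells, where the change was -0.31 ± 0.12 (limma adjusted p = 0.0958). The mean change was -0.11, with a 95% interval from -0.24 to 0.02, so a rise like that of SESN2 lay outside the interval.

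SESN3, a sestrin known as a FOXO target, fell on average over the 4 derivatives (-0.47 ± 0.13, limma adjusted p = 0.0106, 8 against 8 arrays). In DLD1 Mut cells it had 3.78 and 3.76 without glutamine, against 4.48 and 4.57 with it. DLD1 WT cells had 4.19 and 4.01 without glutamine, against 4.78 and 4.93 with it. The arrays were apart in both, but the 2 changes of equal size fell on either side of the threshold, -0.76 ± 0.26 in Mut (limma adjusted p = 0.0436) and -0.75 ± 0.26 in WT cells (limma adjusted p = 0.0523). The call in Mut cells was lost without any 1 of the 8 DLD1 arrays or either array of HCT116 WT cells without glutamine (adjusted p from 0.0503 to 0.153), with the dim genes kept (adjusted p = 0.0578), after quantile normalization (-0.69, adjusted p = 0.0588) and with arrays shifted to the same median (-0.72, adjusted p = 0.0557). The change in WT cells was called with DLD1 fitted alone (adjusted p = 0.00502) and without either HCT116 Mut array with glutamine (adjusted p = 0.0186) or either HCT116 WT array with glutamine (adjusted p = 0.0405). In HCT116 the values were 2.67 and 3.02 in Mut and 3.16 and 3.47 in WT cells without glutamine, against 3.29 and 2.48 in Mut and 3.37 and 3.95 in WT cells with it, with overlap in both and changes of -0.04 ± 0.26 and -0.34 ± 0.26. The difference between the lines in this change was -0.57 ± 0.26 and was not called (limma adjusted p = 0.159), but it was without replicate 1 of HCT116 Mut cells with glutamine (-0.77, adjusted p = 0.0343).

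DEPTOR, the inhibitor that binds mTOR in both of its complexes, moved little and in no common direction. Without glutamine DEPTOR had 3.24 and 3.50 in DLD1 Mut, 3.62 and 3.50 in DLD1 WT, 3.08 and 2.91 in HCT116 Mut, and 4.26 and 4.02 in HCT116 WT cells. With it DEPTOR had 2.89 and 3.10, 3.25 and 3.37, 3.53 and 3.27, and 3.97 and 4.12 in the same derivatives. Only the HCT116 WT arrays overlapped. The changes were 0.38 and 0.25 in DLD1 Mut and WT cells (each ± 0.14, limma adjusted p = 0.0648 and 0.242), -0.41 ± 0.14 in HCT116 Mut cells (limma adjusted p = 0.0495) and 0.10 ± 0.14 in HCT116 WT cells. The call in HCT116 Mut cells lay at the threshold and was lost under 7 of 10 other settings and in 11 of 16 fits without 1 array, among them the fits without replicate 1 of HCT116 Mut cells with glutamine (-0.28, adjusted p = 0.271) and without replicate 2 without it (-0.33, adjusted p = 0.227). The change in DLD1 Mut cells was called after quantile normalization (adjusted p = 0.0214) and among genes above the median level (adjusted p = 0.0411).

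**Figure D2:**
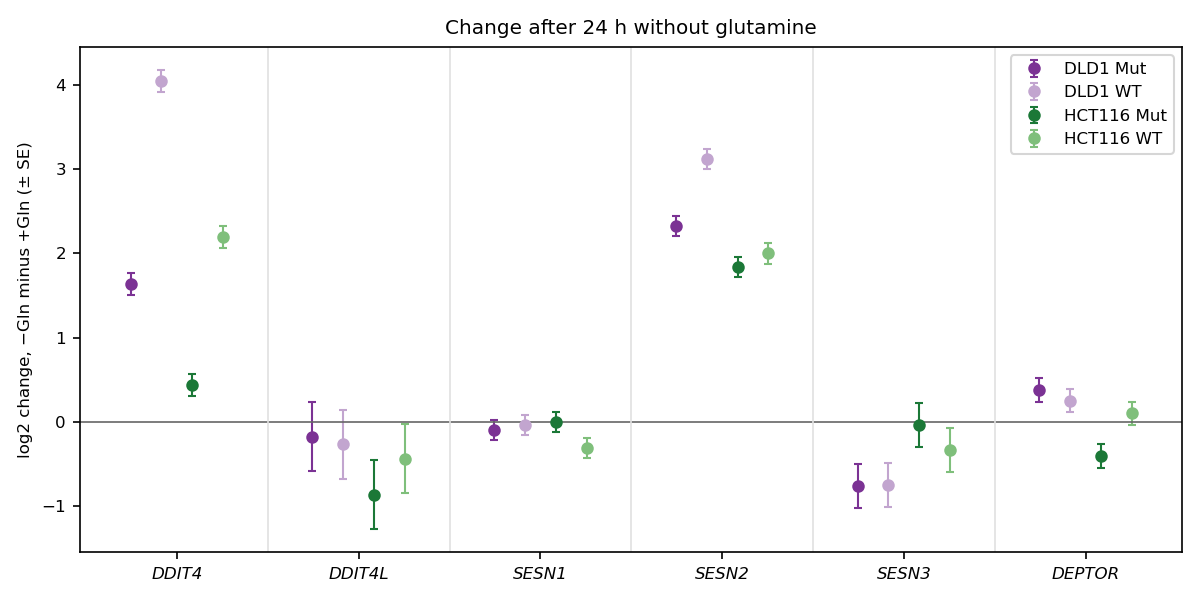
Log2 change after 24 h without glutamine (y axis, −Gln minus +Gln, bars ± limma SE, 2 arrays per condition) of the 6 members in the 4 derivatives. The changes of DDIT4 run from 0.44 in HCT116 Mut to 4.05 in DLD1 WT cells, those of SESN2 from 1.84 to 3.12, and the other members lie between -0.87 and 0.38.

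Of the 6 members, 3 were called after withdrawal in DLD1 Mut cells (33.6% of all tested genes were), 2 in DLD1 WT (27.0%), 3 in HCT116 Mut (32.9%) and 2 in HCT116 WT cells (20.3%). For the mean of the 4 derivatives 3 members were called, DDIT4 and SESN2 higher and SESN3 lower, against 47.7% of all tested genes. These shares of the members are near the background, so the count itself says nothing particular about the group. DDIT4 and SESN2 were called higher in each of the 4 derivatives.

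Mut cells had more DDIT4 and SESN2 than WT cells when glutamine was present. The comparison uses the same arrays with glutamine as the withdrawal comparisons, so the 2 sets of values are not independent. For DDIT4 the difference was 2.73 ± 0.13 in DLD1 (6.62-fold, limma adjusted p = 1.09e-06) and 1.58 ± 0.13 in HCT116 (2.98-fold, limma adjusted p = 0.000163). For SESN2 it was 1.25 ± 0.12 in DLD1 (2.38-fold, limma adjusted p = 0.000201) and 1.44 ± 0.12 in HCT116 (2.71-fold, limma adjusted p = 0.000164). These were the 2 members called in DLD1, where 5.81% of all tested genes were, and 2 of the 3 called in HCT116, where 3.23% were. The other was DEPTOR, lower in HCT116 Mut cells (-0.64 ± 0.14, limma adjusted p = 0.0374), a call lost under 4 of 10 other settings, with HCT116 fitted alone among them (adjusted p = 0.139), and in 7 of 16 fits without 1 array. Those included the fits without HCT116 Mut replicate 2 (-0.51, adjusted p = 0.205) and without HCT116 WT replicate 1 (adjusted p = 0.102) or 2 (adjusted p = 0.191), all with glutamine. SESN1, SESN3 and DDIT4L were not called in either line, with differences from -0.78 to 0.24. The largest of these, SESN3 in HCT116 (-0.78 ± 0.26, limma adjusted p = 0.15), was called without HCT116 Mut replicate 1 with glutamine (-1.18, adjusted p = 0.0384).

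Without glutamine the genotypes no longer differed by a called amount in DDIT4. Its Mut minus WT difference was 0.32 ± 0.13 in DLD1 (95% interval 0.03 to 0.62, limma adjusted p = 0.164) and -0.17 ± 0.13 in HCT116 (95% interval -0.46 to 0.12, limma adjusted p = 0.412), and in both lines the 2 arrays of each genotype were apart. SESN2 stayed higher in Mut cells in HCT116 (1.28 ± 0.12, 2.42-fold, limma adjusted p = 6.94e-05) and was at 0.47 ± 0.12 in DLD1 (limma adjusted p = 0.0359). That DLD1 call was lost with the dim genes kept (adjusted p = 0.0568), with DLD1 fitted alone (adjusted p = 0.105) and without any 1 of the 4 DLD1 arrays in the comparison (adjusted p from 0.0807 to 0.186). Leaving out either HCT116 WT array grown with glutamine lost it too (adjusted p = 0.0519). DEPTOR was lower in HCT116 Mut cells (-1.14 ± 0.14, 2.21-fold, limma adjusted p = 0.000268), at 3.08 and 2.91, against 4.26 and 4.02 in WT cells. So 1 member was called in DLD1, where 10.3% of all tested genes were, and 2 in HCT116, where 24.6% were.

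**Figure D3:**
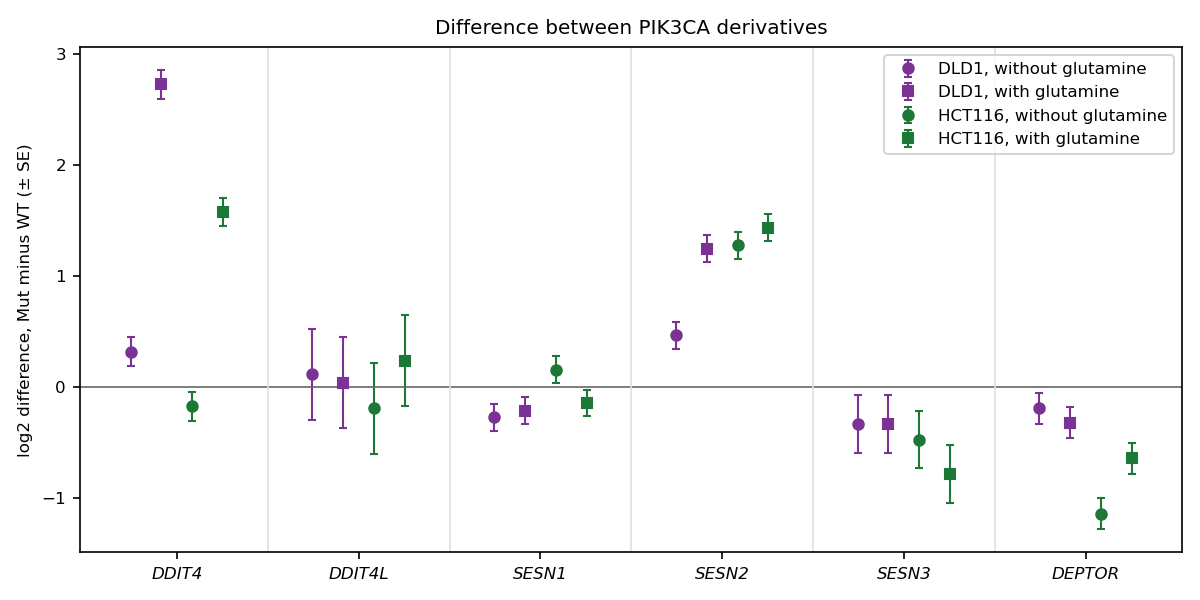
Log2 difference between Mut and WT cells (y axis, bars ± limma SE, 2 arrays per group) of the 6 members, circles without and squares with glutamine, for DLD1 and HCT116. DDIT4 is at 2.73 and 1.58 with glutamine and at 0.32 and -0.17 without it, while SESN2 in HCT116 is at 1.44 with and 1.28 without it, and DEPTOR in HCT116 is below 0 in both.

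Whether withdrawal acted differently in the 2 genotypes was tested directly as an interaction. The rise of DDIT4 was smaller in Mut than in WT cells, by an interaction of -2.40 ± 0.19 in DLD1 (limma adjusted p = 0.000777) and of -1.75 ± 0.19 in HCT116 (limma adjusted p = 0.000661). DDIT4 was the single member called in each line, where 0.823% of all tested genes were called in DLD1 and 9.49% in HCT116. With DLD1 fitted alone the DLD1 call was lost (adjusted p = 0.0682), with the same value. For SESN2 the interaction was -0.78 ± 0.17 in DLD1 (limma adjusted p = 0.0651) and -0.16 ± 0.17 in HCT116 (limma adjusted p = 0.629), and the DLD1 value was called among genes above the median level (adjusted p = 0.0339) and with a trended, robust prior (adjusted p = 0.00972). For the other 4 members the interactions lay between -0.50 and 0.30 and were not called.

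**Figure D4:**
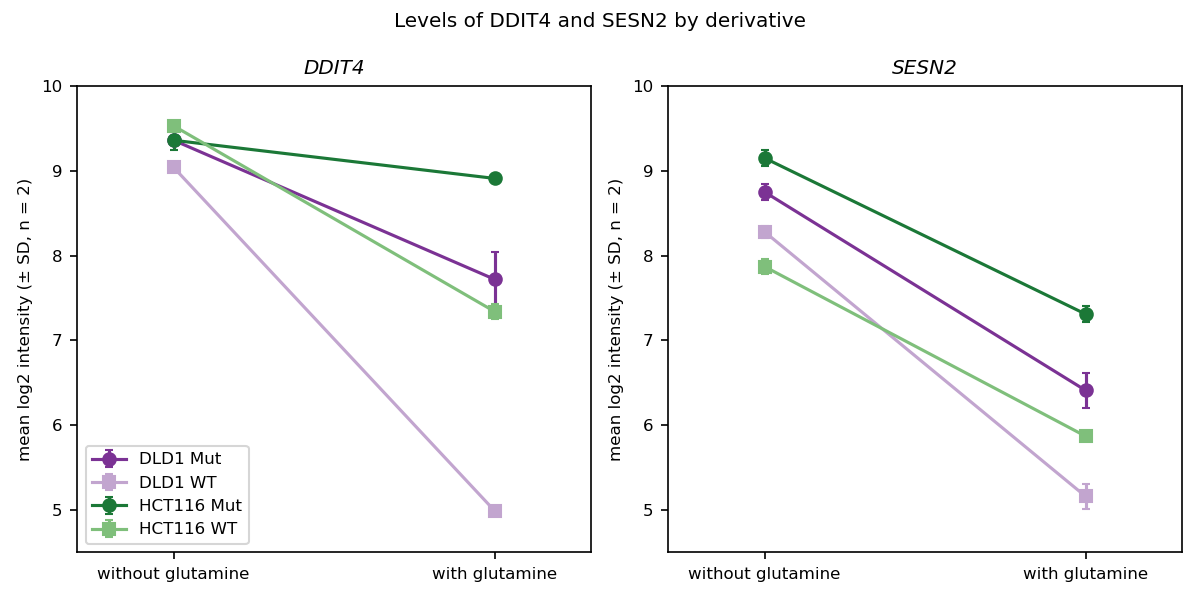
Mean log2 intensity (y axis, bars ± SD, n = 2 arrays) of DDIT4 (left) and SESN2 (right) without and with glutamine, with 1 line per derivative. The 4 derivatives lie within 0.49 of each other for DDIT4 without glutamine and within 3.92 with it, and within 1.28 and 2.15 for SESN2.

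The lines were then compared, averaged over the genotypes. The change after withdrawal was larger in DLD1 than in HCT116 for DDIT4 (difference 1.53 ± 0.13, limma adjusted p = 9.2e-05) and SESN2 (0.80 ± 0.12, limma adjusted p = 0.00145). For DDIT4 this average did not hold for every derivative. Its rise was largest in DLD1 WT cells (4.05), but smaller in DLD1 Mut (1.64) than in HCT116 WT cells (2.19). DEPTOR differed by 0.47 ± 0.14 (limma adjusted p = 0.0435), a call lost in 12 of the 16 fits without 1 array (adjusted p from 0.051 to 0.0971). These 3 members compare with 19.0% of all tested genes. With glutamine present all 6 members differed between the lines, against 47.0% of all tested genes. DLD1 had less DDIT4 (-1.77 ± 0.09), DDIT4L (-1.12 ± 0.29), SESN1 (-0.70 ± 0.08), SESN2 (-0.80 ± 0.09) and DEPTOR (-0.57 ± 0.10) than HCT116, and more SESN3 (1.42 ± 0.18, limma adjusted p = 7.1e-05), the only member that was higher there. These are averages too: with glutamine DLD1 Mut cells had more DDIT4 (7.72) and SESN2 (6.41) than HCT116 WT cells (7.34 and 5.87). DDIT4L is too dim for the test that keeps genes above the median level.

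The genes most like each member were taken as the 3 with the highest Pearson correlation over the 16 arrays. The arrays share line, genotype and glutamine state, so these values describe the layout of the groups. For SESN2 they were ZFAND2A, a stress-induced zinc finger protein (r = 0.989), the cytosolic aspartate aminotransferase GOT1 (r = 0.974) and the nuclear factor AKIRIN1 (r = 0.960). ZFAND2A rose in each derivative, by 0.71 and 1.14 in DLD1 Mut and WT cells and by 0.53 and 0.74 in HCT116 Mut and WT cells. For DDIT4 they were the mitochondrial protease LONP1 (r = 0.954), the cystine transporter subunit SLC7A11 (r = 0.942) and the ribosome assembly factor RSL24D1 (r = 0.931). SLC7A11 rose in each derivative, most in DLD1 WT (2.02 ± 0.11) and least in HCT116 Mut cells (0.41 ± 0.11), the derivatives with the largest and smallest change of DDIT4, whereas LONP1 (-0.03) and RSL24D1 (-0.17) were not called in HCT116 Mut cells. DDIT4 and SESN2 correlated with each other at r = 0.897.

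SESN3 was most like the chemokine CX3CL1 (r = 0.946), the lysosomal mannosidase MAN2B1 (r = 0.945) and the RNA-binding protein RBM15B (r = 0.942). CX3CL1 fell in DLD1 Mut (-1.40 ± 0.36) and WT cells (-1.36 ± 0.36) and was not called in HCT116. SESN1 was most like the monocarboxylate transporter SLC16A7 (r = 0.955), the small RNA SNAR-H (r = 0.950) and glycine decarboxylase, GLDC (r = 0.946). SNAR-H belongs to a family of almost identical copies, so its own level is uncertain. DEPTOR was most like the noncoding BAIAP2-DT (r = 0.907), SLC66A3 (r = 0.903) and the actin filament capping protein TMOD3 (r = 0.891), and DDIT4L most like EFCAB10 (r = 0.897), ISM1-AS1 (r = 0.879) and TTN-AS1 (r = 0.876).

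The rest of the pathway was read from 9 lists of genes by role, also chosen with earlier results of these data known. Unless a derivative is named, values are for the mean change over the 4 derivatives. There the median of all tested genes was 0.00 and 47.7% of genes were called. Among Rag GTPases, Ragulator and folliculin genes, which carry the amino acid signal to mTORC1, 7 of 11 rose and 2 fell, with a median of 0.34. They included RRAGC (0.83 ± 0.05), RRAGD (0.71 ± 0.11) and the folliculin partner FNIP1 (0.82 ± 0.05). Among mTORC1 substrates and outputs 7 of 12 rose and 2 fell (median 0.20), with the lysosomal transcription factors TFE3 (0.86 ± 0.06) and MITF (0.72 ± 0.06) and the adaptor GRB10 (0.76 ± 0.07) among them. MITF was called in DLD1 Mut (1.90 ± 0.11) and DLD1 WT cells (0.91 ± 0.11) and not in HCT116 Mut (0.19) or HCT116 WT cells (-0.12). Its change differed between the lines by 1.37 ± 0.11 (limma adjusted p = 6.91e-05), with an interaction of 0.99 ± 0.16 in DLD1 (limma adjusted p = 0.0288). With glutamine its level was also lower in HCT116, DLD1 minus HCT116 being 1.77 ± 0.08 (limma adjusted p = 1.72e-08). The part of this lower level in the HCT116 values was not tested. Of 12 transcription factors known to act on the members' genes 9 rose and 0 fell (median 0.45), among them DDIT3 (2.94 ± 0.17), ATF3 (1.82 ± 0.13), CEBPB (1.07 ± 0.06) and ATF4 (0.78 ± 0.05).

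ATF4 transcript rose in each derivative, by 0.93 and 0.99 in DLD1 Mut and WT cells and by 0.52 and 0.69 in HCT116 Mut and WT cells (each ± 0.10). Between the genotypes with glutamine ATF4 was not called in either line (0.20 ± 0.10 in each), unlike DDIT4 and SESN2, though whether these genes differ from it was not tested. DDIT3 had Mut minus WT differences of 0.73 ± 0.33 in DLD1 and 1.39 ± 0.33 in HCT116 with glutamine (limma adjusted p = 0.258 and 0.0512).

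Of 10 mTOR complex subunits and assembly factors 1 rose, RICTOR of the second mTOR complex (0.60 ± 0.05), and 4 fell, with the assembly factors TELO2 (-0.70 ± 0.07) and TTI1 (-0.51 ± 0.05) among them (median -0.06). Of 11 GATOR and KICSTOR genes 1 rose, the GATOR2 subunit MIOS (0.27 ± 0.05), and 3 fell, such as NPRL3 of GATOR1 (-0.32 ± 0.08), with a median of -0.03. Among 5 TSC complex and Rheb genes RHEBL1 (0.56 ± 0.09) and TSC2 (0.20 ± 0.04) rose and the TSC subunit TBC1D7 fell (-0.40 ± 0.09). RHEBL1 was called in DLD1 WT cells (1.99 ± 0.18) and not in DLD1 Mut (0.31), HCT116 Mut (-0.10) or HCT116 WT cells (0.05), with an interaction of -1.68 ± 0.26 in DLD1 (limma adjusted p = 0.0258). Of 6 amino acid sensors the arginine sensor relative CASTOR2 (-0.50 ± 0.14) and the GTPase SAR1A (-0.19 ± 0.05) fell, and the leucyl-tRNA synthetase LARS1 (0.32 ± 0.04) rose. Of 11 PI3K and AKT genes 4 rose, such as the phosphatase INPP4B (0.58 ± 0.06) and the kinase PDPK1 (0.53 ± 0.09), and 3 fell, such as PHLPP1 (-0.46 ± 0.08). These are means over the 4 derivatives: of the genes named from the lists, RRAGC, FNIP1, TFE3, RICTOR, TTI1, INPP4B, DDIT3, ATF3, CEBPB and ATF4 were called in each derivative. TSC2, CASTOR2, SAR1A and PDPK1 were called in DLD1 Mut cells and in no other derivative. MIOS and TBC1D7 were called in the Mut cells of both lines only, LARS1 in the DLD1 derivatives only, and NPRL3 in none alone. GRB10 was called in all but HCT116 Mut cells, RRAGD in all but DLD1 Mut cells, and TELO2 and PHLPP1 in all but HCT116 WT cells.

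**Figure D5:**
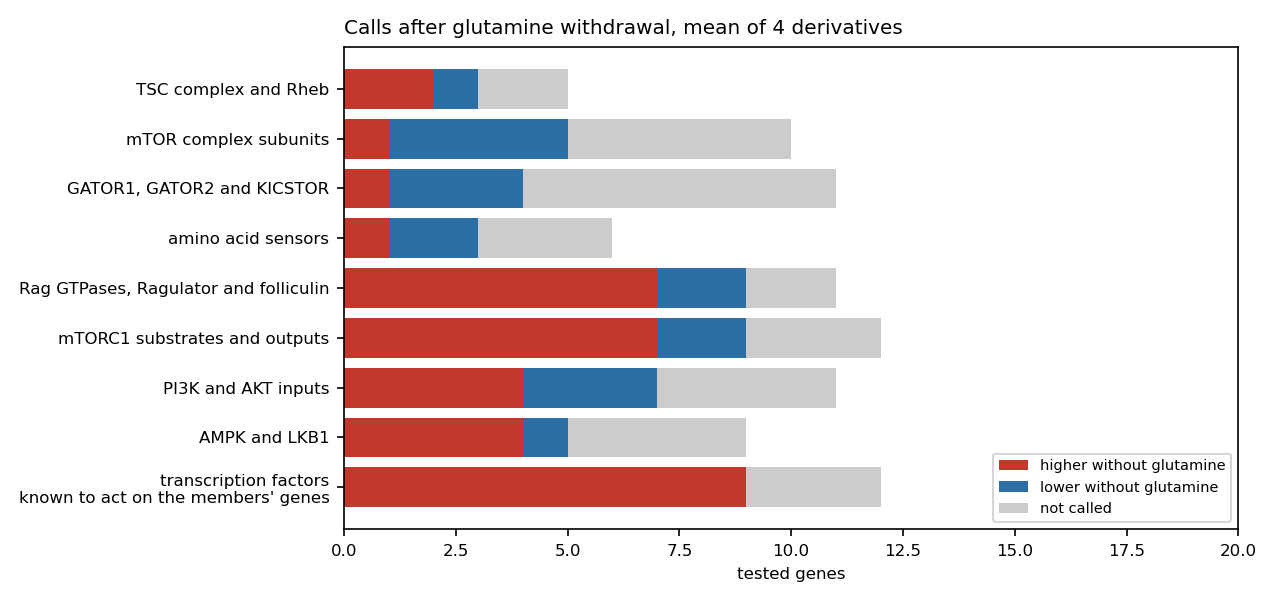
Number of tested genes (x axis) in each of the 9 pathway lists (y axis) that were called higher, called lower or not called after glutamine withdrawal, for the mean of the 4 derivatives. The Rag and Ragulator list and the list of mTORC1 substrates each hold 7 higher and 2 lower genes, and the list of transcription factors 9 higher and 0 lower.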

How the data were processed

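Per the labels' protocols, labelled targets were made from total RNA with the Affymetrix whole-transcript method. The deposited table holds linear intensity values of 53617 probe sets on 16 arrays, with near-equal distributions, and which software and normalization the authors used is not given in the sources used here. From these, log2 was taken with no pseudocount. Of the probe sets 23871 had exactly 1 symbol (repeats counted once), brought to its current form by Entrez identifier (RefSeq, GRCh38.p14), and the brightest was kept per gene, 22395 in all. The 15676 genes in the upper 70% of mean level (1.65 or more) were modelled together by limma 3.58.1 under R 4.3.3, with lmFit, eBayes, a mean for each of the 8 groups, 8 residual and 2.49 prior degrees of freedom, and Benjamini-Hochberg adjustment. The number of arrays, 2 per group, limits the precision. The code was tested on simulated data. Named genes were the members, the 3 most correlated genes of each, and of each list the 3 called genes with the largest mean change, plus ATF4 and DDIT3; a further gene of the rule is not reported here. Members and lists were chosen with earlier results of these data known. The alternatives were other filters, normalizations, a pseudocount of 1, the mean of probe sets, replicate blocks, another prior, single-line fits and leaving out each array.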

Additional observations from a re-analysis of the deposited data

Results flagged for a closer look

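The 5 differences below, each between the effects of 2 genotypes or 2 lines, passed the test of the difference itself in the main fit. Not all of them passed it under every other setting. The change of DDIT4 after glutamine withdrawal differed between Mut and WT cells by -2.40 in DLD1 and by -1.75 in HCT116 on the log2 scale. Averaged over genotypes, the change differed between DLD1 and HCT116 by 1.53 for DDIT4, 0.80 for SESN2 and 0.47 for DEPTOR. The DEPTOR call was lost under 3 of 9 other settings, with the dim genes kept among them (limma adjusted p = 0.0656). With DLD1 fitted alone, the difference of DDIT4 between the DLD1 genotypes was not called (limma adjusted p = 0.0682). For DDIT4 the level in glutamine enters each difference by construction, so the 2 are not independent. That level was 7.72 in DLD1 Mut, 4.99 in DLD1 WT, 8.91 in HCT116 Mut and 7.34 in HCT116 WT cells. Its part in the differences was not tested separately.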

How the results depend on the processing

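Each of 78 member results is a log2 change in 1 comparison. Of their 1997 alternative values 1870 kept their direction and side of the threshold, 73 lost a call, 21 gained one and 33 changed sign, all 33 in results called in neither fit. The calls of DDIT4 and SESN2 after withdrawal in DLD1 Mut, DLD1 WT and HCT116 WT cells, and between the genotypes with glutamine, held under every setting run. No comparison's median over all genes moved by over 0.1 under another normalization. The cause was not tested for the changes below, some of which came with fewer genes or arrays in the fit.

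Over all tested genes, replicate numbers did not pair the arrays: deviations of same-numbered arrays correlated at -0.036 to 0.033 over 28 pairs of groups. A single gene can still differ by replicate number, and DDIT4L was higher in replicate 1 than in replicate 2 in every group. With the replicate block, 76 genes were called in the genotype by glutamine test in DLD1, and 22 with the block within each line, against 129 without it, and 0 members were called between genotypes without glutamine in DLD1 with either block (SESN2 adjusted p = 0.0503 and 0.0635). DDIT4L was called with either block in HCT116 Mut cells (adjusted p = 0.0202 and 0.0266) and for the mean change (adjusted p = 0.0131 and 0.0173). SESN3 in DLD1 Mut cells lost its call with either block, and the DEPTOR calls after withdrawal and between genotypes with glutamine in HCT116, and between lines after withdrawal, were lost with the first.

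In the same DLD1 interaction test 46 genes were called with dim genes kept, 328 among genes above the median level, 602 with a trended, robust prior and 3 with DLD1 alone, where 2, 2 and 0 members were called under the last 3 settings. With dim genes kept, or with DLD1 alone, 0 members were called between genotypes without glutamine in DLD1. Between genotypes with glutamine, 1379 genes in DLD1 and 963 in HCT116 were called with the trended prior, against 910 and 507, and 599 and 89 with the line alone. With HCT116 alone 2070 genes were called after withdrawal in WT cells, against 3189, and 430 in the interaction, against 1488.

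Changes of sign in uncalled results were 0.014 for SESN1 in DLD1 WT cells, 0.017 for SESN1 and 0.032 for SESN3 in HCT116 Mut cells (quantile normalization), 0.015 for SESN1 in HCT116 Mut cells and 0.024 for the SESN3 interaction in DLD1 (equal medians), and 0.006 for that interaction with a pseudocount of 1.

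Leaving out 1 array, the members called ranged from 1 to 3 after withdrawal in HCT116 Mut cells and from 0 to 1 between genotypes without glutamine in DLD1. Genes called ranged from 2054 to 3140 after withdrawal in HCT116 WT cells, from 459 to 887 (DLD1) and 199 to 488 (HCT116) between genotypes with glutamine, from 709 to 1563 in DLD1 without it, and from 15 to 97 (DLD1) and 842 to 1396 (HCT116) in the interaction. Withdrawal values that crossed 0 ranged from -0.573 to 0.214 (DDIT4L) and -0.231 to 0.029 (SESN1) in DLD1 Mut, -0.121 to 0.112 (SESN1) and -0.44 to 0.367 (SESN3) in HCT116 Mut, and -0.876 to 0.001 (DDIT4L) and -0.021 to 0.215 (DEPTOR) in HCT116 WT cells. Genotype differences of DDIT4L ranged from -0.356 to 0.43 (DLD1) and -0.316 to 0.805 (HCT116) with glutamine, and from -0.151 to 0.399 (DLD1) and -0.43 to 0.051 (HCT116) without it. Interactions in DLD1 ranged from -0.306 to 0.48 (DDIT4L), -0.193 to 0.067 (SESN1), -0.089 to 0.085 (SESN3) and -0.0 to 0.262 (DEPTOR), and in HCT116 from -0.995 to 0.127 (DDIT4L) and -0.099 to 0.708 (SESN3).

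With 2 arrays a group and 1 derivative a genotype, small changes were not resolved. DDIT4L was dim, at a mean log2 level of 2.64 and percentile 46.45 among all genes with a probe set. DEPTOR (3.48, percentile 53.57) and SESN3 (3.74, percentile 55.6) were also only near the middle of all genes.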

Other observations

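The list of AMPK and LKB1 genes, the energy-sensing kinase branch that acts on mTORC1, had 4 of 9 genes called higher and 1 lower for the mean change after withdrawal (median 0.26). Of all tested genes 47.7% were called in that comparison, with a median of -0.004. The count is near that share and says nothing particular about the list. PRKAB2, a regulatory subunit of AMPK, rose by 2.10 in DLD1 Mut, 1.41 in DLD1 WT, 1.87 in HCT116 Mut and 0.90 in HCT116 WT cells (each ± 0.12, limma). Its genotype difference lay in the opposite condition to that of DDIT4: Mut minus WT was 0.65 in DLD1 and 0.98 in HCT116 without glutamine (limma adjusted p = 0.00569 and 0.000203), and -0.04 and 0.01 with it. The interaction was called in HCT116 (0.97 ± 0.16, limma adjusted p = 0.0056) and not in DLD1 (0.69 ± 0.16, limma adjusted p = 0.0785). PRKAB1 was also called in each derivative (mean 0.90 ± 0.06). The catalytic subunit gene PRKAA2 rose in HCT116 Mut (1.89 ± 0.14) and HCT116 WT cells (0.78 ± 0.14) and was not called in DLD1 Mut (0.08) or DLD1 WT cells (0.13). Its change differed between the lines by -1.23 ± 0.14 (limma adjusted p = 0.000316). With glutamine its level was far lower in DLD1 than in HCT116 (-4.26 ± 0.10, limma adjusted p = 1.88e-10). Whether a change could be seen at that low level was not tested. In HCT116, Mut minus WT was -2.03 ± 0.14 with glutamine (limma adjusted p = 5.86e-05), and the interaction was 1.1 ± 0.2 (limma adjusted p = 0.00725).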
